A study of Mus musculus with 12 samples.

Results

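The genes described here encode the presynaptic machinery that stores and releases neurotransmitter vesicles. They are 50 listed symbols, taken from a list of names drawn up with earlier results of these data known, and all 50 were present among the 56734 genes of the authors' expression table. The libraries came from wild-type mouse cerebral cortex, from neurons labelled with the red fluorescent protein mCherry by timed electroporation in utero and collected by fluorescence sorting. The labels call the cells layer 2 or layer 3 CPNs and do not spell out the abbreviation. The 4 groups were layer 2 at postnatal day 3 (P3), layer 3 at P3, layer 2 at postnatal day 7 (P7) and layer 3 at P7, each with 3 libraries, and each library pooled neurons from 2 to 3 pups. The promoter that drives mCherry is not named in any label. Library names carry 14 for layer 3 and 15 for layer 2, numbers that no label explains.

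A synaptic vesicle fuses with the plasma membrane when its SNARE protein zips together with SNARE proteins of the target membrane, and synaptotagmins on the vesicle couple this step to the entry of calcium. Complexins hold and assist the assembled SNARE complex, Munc13 and RIM proteins of the active zone make vesicles ready for fusion, and synapsins, SV2 proteins and Rab3 GTPases sit on the vesicles themselves. In the first postnatal weeks cortical neurons extend axons and form synapses, and synapse numbers in the rodent cortex rise over this time.

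Promoter windows from RefSeq on GRCm38.p6 were found for 37 of the 50 genes, as 49 windows of the 250 bases before a gene start. The windows below are shown for Cplx2, which passed the test of a difference in age change between the layers, for its paralog Cplx1, and for Syn1 and Ppfia3, which held the core of RE1, the element bound by the repressor REST. Capitals mark matches, on either strand, to the RE1 core TTCAGCACC, to the cyclic AMP response element TGACGTCA or to the GC box GGGCGG, none of which overlap in these 4 windows. The window of Syn1 is chrX:20920919-20921168 on the minus strand, that of Ppfia3 is chr7:45367020-45367269 on the minus strand, that of Cplx1 is chr5:108550028-108550277 on the minus strand and that of Cplx2 is chr13:54302306-54302555 on the plus strand.
Syn1: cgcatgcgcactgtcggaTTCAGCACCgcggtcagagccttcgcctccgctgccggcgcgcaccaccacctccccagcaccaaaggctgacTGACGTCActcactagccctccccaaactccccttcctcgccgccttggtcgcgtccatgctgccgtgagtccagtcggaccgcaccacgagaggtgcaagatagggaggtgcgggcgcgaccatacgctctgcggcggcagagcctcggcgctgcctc
Ppfia3: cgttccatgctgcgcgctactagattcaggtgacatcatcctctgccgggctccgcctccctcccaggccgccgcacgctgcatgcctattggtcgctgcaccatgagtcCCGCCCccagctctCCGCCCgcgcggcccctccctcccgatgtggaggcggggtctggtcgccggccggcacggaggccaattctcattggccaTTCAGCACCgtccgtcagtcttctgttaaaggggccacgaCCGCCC
Cplx1: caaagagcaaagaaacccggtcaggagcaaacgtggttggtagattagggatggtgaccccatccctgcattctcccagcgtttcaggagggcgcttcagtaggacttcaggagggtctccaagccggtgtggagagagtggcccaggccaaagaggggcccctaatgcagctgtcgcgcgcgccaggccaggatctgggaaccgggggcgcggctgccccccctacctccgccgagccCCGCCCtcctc
Cplx2: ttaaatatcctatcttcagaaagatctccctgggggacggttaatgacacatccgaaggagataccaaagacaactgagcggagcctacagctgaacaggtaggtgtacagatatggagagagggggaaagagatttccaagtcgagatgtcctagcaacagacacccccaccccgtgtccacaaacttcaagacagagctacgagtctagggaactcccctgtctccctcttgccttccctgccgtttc
The RE1 core stood in 0.301% of all 32851 mouse windows of this length and in 2 of the 49 windows of release genes, those of Syn1 and Ppfia3. The cyclic AMP response element stood in 1.55% of all windows and, among release genes, in that of Syn1. The GC box stood in 32.7% of all windows and in 30 of the 49, or 61.2%. The Cplx2 window held none of the 3 motifs and had a GC content of 50.8%, against 64.8% for Cplx1, 67.6% for Ppfia3 and 68% for Syn1. A match describes letters and is not evidence of binding.

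Levels are in TPM, a transcript abundance scaled to gene length and to a fixed total, from which read depth, and so the precision of any library, cannot be had. From 15349 to 16948 genes had at least 1 TPM, depending on the library. Slc17a7, the vesicular glutamate transporter, had mean TPM of 20.9 (layer 2) and 33.4 (layer 3) at P3 and 171 and 321 at P7, and the upper-layer marker Cux2 had means of 24.2, 49.0, 26.2 and 27.7 in the same order. Transcripts of other cells were present, with Gad1 of interneurons up to 23.2 TPM, Aqp4 of astrocytes up to 85.8, Cx3cr1 of microglia up to 113 and the myelin gene Mbp up to 462 TPM. P3 layer 2 replicate 2, P3 layer 3 replicate 1 and P7 layer 3 replicate 1 stood apart from their groups in earlier results of these data, and counts without them are given with each comparison. In sorted pools, fewer cells of a type and less RNA per cell cannot be told apart.

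The release genes took up a small and growing share of all transcripts. Their summed level was 3806, 2907 and 3690.1 TPM in the 3 libraries of P3 layer 2, 4453, 5256 and 4851 TPM in P3 layer 3, 8209, 7025 and 7888 TPM in P7 layer 2, and 9085, 9346 and 10214 TPM in P7 layer 3. The 4 groups followed each other in this order with no overlap. As a share of all TPM the means were 0.347% ± 0.0489 (SD, n = 3 here and for each TPM mean below), 0.485% ± 0.0402, 0.771% ± 0.0612 and 0.955% ± 0.0591. Set against the summed TPM of 14 pan-neuronal genes, the ratio was 0.361 ± 0.00308 in P3 layer 2 and 0.370 ± 0.0655 in P3 layer 3, with overlapping libraries. The overlap came from P3 layer 3 replicate 1 (0.300), a library that stood apart. Replicates 2 and 3 of P3 layer 3 (0.430 and 0.379) lay above the P3 layer 2 libraries (0.358 to 0.365). The ratio was 0.618 ± 0.0117 in P7 layer 2 and 0.704 ± 0.0168 in P7 layer 3, above every P3 library.

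**Figure D1:**
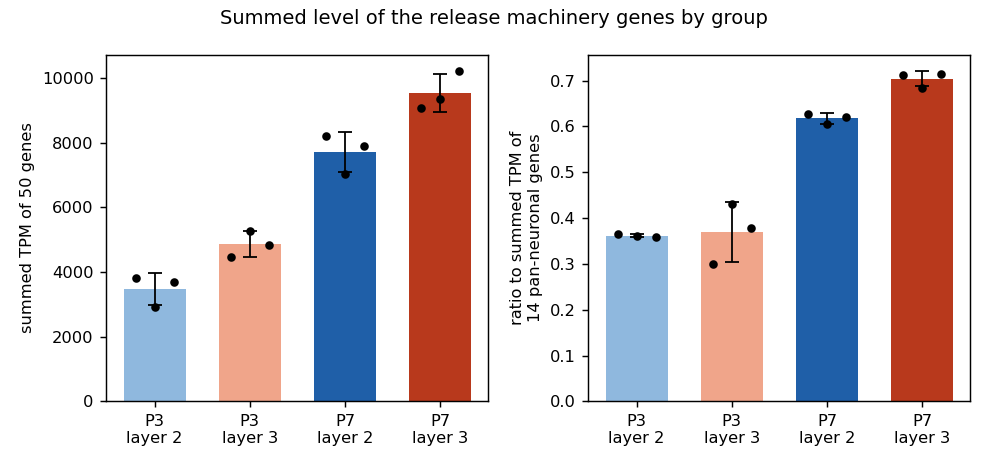
Summed TPM of the 50 release genes (left, y axis in TPM) and the ratio of that sum to the summed TPM of 14 pan-neuronal genes (right, no unit) in the 4 groups; points are libraries, bars are means and error bars are SDs of 3. The summed TPM rises from P3 layer 2 to P7 layer 3 without overlap, while the ratio overlaps between the layers at P3. There layer 3 replicate 1 lies below the layer 2 libraries, and layer 3 replicates 2 and 3 lie above them.

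The levels were unequal. Vamp2, Snap25, Rab3a, Syp, Syt4 and Syngr3 together held between 54.4% and 57.7% of the summed TPM in every library. Vamp2, the vesicle SNARE synaptobrevin, averaged 538 ± 79.4 TPM in P3 layer 2 and 1287 ± 109 TPM in P7 layer 3. At the other end, the Munc13 isoform Unc13c, the vesicle protein Sv2c and the synaptotagmin Syt12 stayed at or below 1.51, 2.25 and 1.82 TPM in all 12 libraries. Syt2, a fast calcium sensor of the hindbrain and spinal cord, was the 1 release gene that missed the filter of at least 1 TPM in at least 3 libraries, reaching at most 1.39 TPM and listed at 0 in P7 layer 3 replicate 3. The other 49 were among 17606 genes tested.

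**Figure D2:**
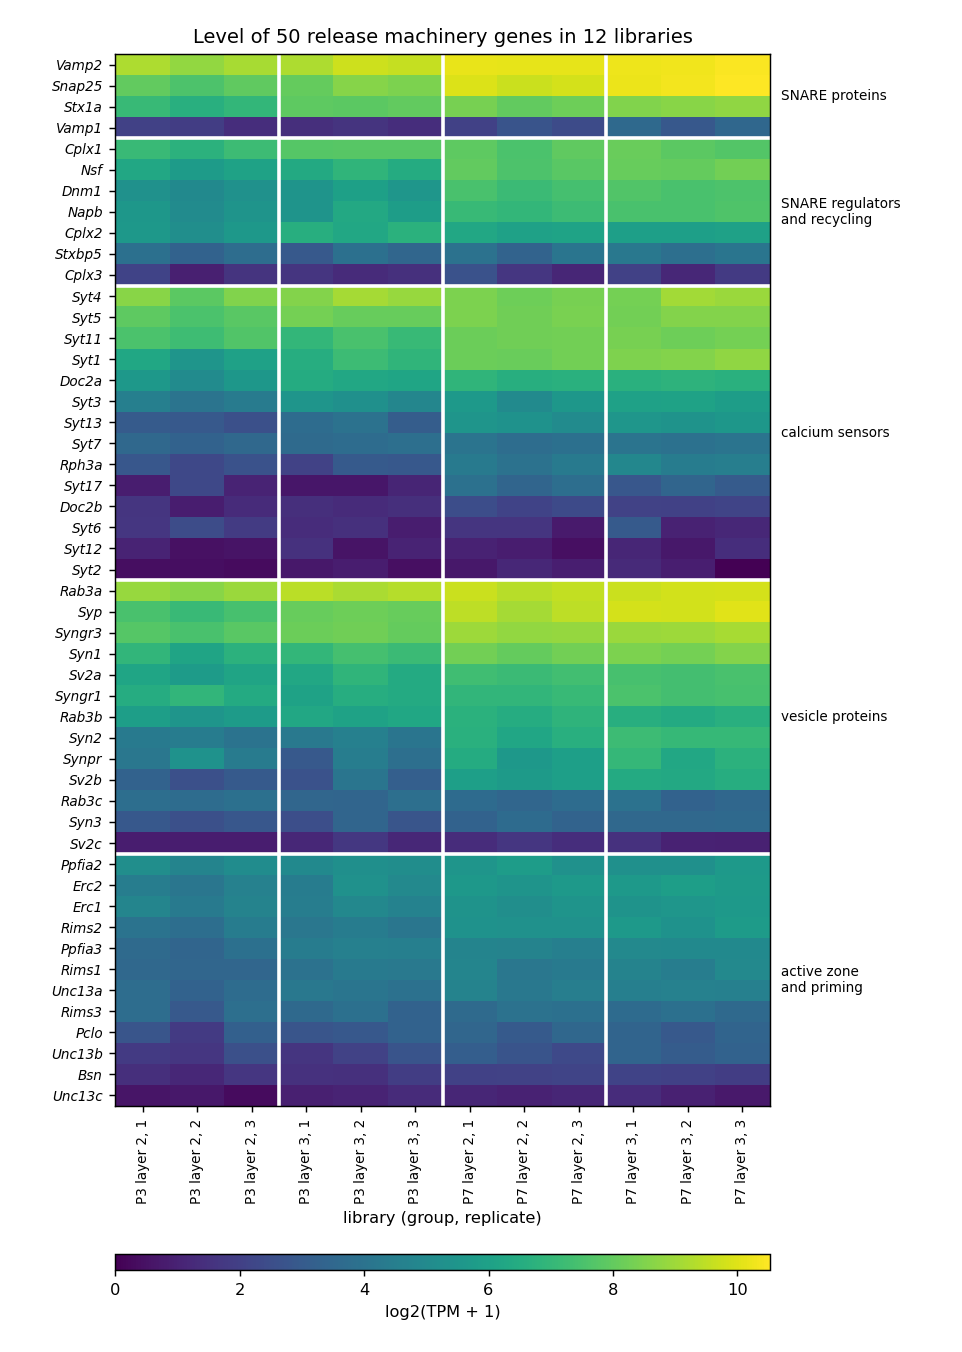
Level of each of the 50 release genes (rows, grouped by role and ordered by mean) in each of the 12 libraries (columns), as log2(TPM + 1) on the colour scale. Vamp2, Snap25, Rab3a and Syp are the brightest rows at P7, and Syt2, Syt12 and Unc13c are dark in every library.

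The first question was which release genes changed between P3 and P7 within each layer. In layer 2, 33 of the 49 rose and 0 fell, where 15.0% of all tested genes rose and 9.33% fell (24.3% in either direction). In layer 3, 26 rose and 1 fell, where 14.4% of all tested genes rose and 6.42% fell (20.8% in either direction). The median log2 fold change of the 49 genes was 0.92 in layer 2 against 0.03 over all tested genes, and 0.74 in layer 3 against 0.17. Rose and fell here mean an adjusted p under 0.05 (limma's moderated test, Benjamini-Hochberg over every tested gene). Each log2 fold change is a difference of mean log2(TPM + 1), given with its standard error, and understates the change of low genes. The ranges of the 3 libraries lay apart and higher at P7 for 40 of the 49 genes in layer 2 and 35 in layer 3, where 26.3% and 23.2% of all tested genes did so. They lay apart and lower for 2 and 1, where 20.3% and 11.3% of all tested genes did so.

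Among the SNARE proteins, 3 of 4 rose in layer 2 and 4 of 4 in layer 3. Snap25, a SNARE of the plasma membrane, stood at 253, 191 and 244 TPM in P3 layer 2 and 1009.9, 806 and 927 TPM in P7 layer 2. In layer 3 it stood at 259, 387 and 351 TPM at P3 and 1193, 1283 and 1468 TPM at P7. Every P7 library lay above every P3 library, and the log2 fold change was 2.00 ± 0.16 in layer 2 (adjusted p = 2.10e-06) and 2.00 ± 0.16 in layer 3 (adjusted p = 4.45e-06). Its partner Stx1a, the syntaxin of the plasma membrane, went from 137, 97.8 and 124 to 326, 255 and 289.5 TPM in layer 2 (1.28 ± 0.13, adjusted p = 1.95e-05) and from 239.7, 229.7 and 253 to 371, 407 and 433 TPM in layer 3 (0.74 ± 0.13, adjusted p = 0.00175). Vamp2 rose by 1.09 ± 0.14 in layer 2 (adjusted p = 0.000130) and 0.81 ± 0.14 in layer 3 (adjusted p = 0.00151). The minor paralog Vamp1, the synaptobrevin best known from spinal cord and brainstem, was at 1.70, 1.99 and 1.63 TPM in P3 layer 3 and 11.1, 6.53 and 10.5 TPM in P7 layer 3 (1.88 ± 0.28, adjusted p = 0.000575). In layer 2 it was at 3.04, 2.78 and 1.57 and 3.08, 5.58 and 4.33 TPM and did not pass (adjusted p = 0.131), and the test of the difference between the layers did not pass either (adjusted p = 0.233).

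Of the 7 SNARE regulators and recycling genes, 5 rose in layer 2, and 3 rose and 1 fell in layer 3. Dnm1, the dynamin that pinches off retrieved vesicles, averaged 36.4 ± 5.13 TPM in P3 layer 2 and 163 ± 19.1 TPM in P7 layer 2 (2.14 ± 0.16, adjusted p = 1.63e-06). In layer 3 it averaged 49.7 ± 11.2 and 191 ± 11.0 TPM (1.94 ± 0.16, adjusted p = 7.20e-06). Nsf, the ATPase that takes spent SNARE complexes apart, rose by 1.76 ± 0.16 in layer 2 and 1.55 ± 0.16 in layer 3, and Napb, the adaptor that recruits it, by 1.72 ± 0.20 and 1.64 ± 0.20. The largest adjusted p of these 4 tests was 0.000108. For these 3 genes every P7 library lay above every P3 library in both layers.

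Among the complexins, Cplx1 rose in layer 2 from 140.2, 108 and 146 to 236, 184 and 246 TPM (0.75 ± 0.15, adjusted p = 0.00229), while in layer 3 it stood at 215, 222 and 217 TPM at P3 and 273, 235 and 207 TPM at P7 (0.12 ± 0.15, adjusted p = 0.610). The layer 3 ranges overlapped, and the difference between the layers did not pass (adjusted p = 0.241). Cplx2, the other complexin with a level above 35 TPM in every library, is described with the layer comparisons. Cplx3, a complexin known from retinal ribbon synapses, stayed between 0.880 and 5.35 TPM, and Stxbp5, the tomosyn that competes for SNARE assembly, between 6.61 and 17.5 TPM, with no call at either layer.

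Of the 13 tested calcium sensors and relatives, 9 rose in layer 2 and 6 in layer 3. Syt1, the main sensor for fast release in the forebrain, stood at 76.3, 43.5 and 64.6 TPM in P3 layer 2 and 282, 274 and 313 TPM in P7 layer 2 (2.25 ± 0.20, adjusted p = 5.19e-06). In layer 3 it stood at 92.4, 149 and 117 TPM at P3 and 362, 374 and 442 TPM at P7 (1.73 ± 0.20, adjusted p = 7.67e-05). Every P7 library lay above every P3 library. Syt13, a synaptotagmin that does not bind calcium, rose from 7.05, 6.62 and 4.98 to 43.5, 40.1 and 32.5 TPM in layer 2 (2.46 ± 0.22, adjusted p = 6.34e-06) and from 12.1, 14.7 and 7.71 to 45.7, 40.9 and 46.3 TPM in layer 3 (1.89 ± 0.22, adjusted p = 9.04e-05). Syt17 was at 0.554 to 1.11 TPM at P3 outside P3 layer 2 replicate 2 (3.88 TPM) and reached 14.2, 9.78 and 13.0 TPM in P7 layer 2 and 6.17, 9.79 and 7.04 TPM in P7 layer 3 (2.32 ± 0.35 and 2.31 ± 0.35). Rph3a, the rabphilin that binds Rab3, rose by 1.60 ± 0.27 and 1.95 ± 0.27.

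Other sensors had smaller estimates or a call in 1 layer. Syt3 rose by 1.11 ± 0.21 in layer 2 and 0.77 ± 0.21 in layer 3, the latter a call lost in 5 of 21 alternatives (adjusted p up to 0.0905), and Syt11, a relative that does not bind calcium, by 0.73 ± 0.14 and 1.10 ± 0.14. Syt5 rose in layer 2 (0.58 ± 0.13, adjusted p = 0.00495) and was 0.31 ± 0.13 in layer 3 (adjusted p = 0.0984). Doc2a, a high-affinity sensor for spontaneous and asynchronous release, went from 47.4, 32.6 and 46.9 to 118, 96.4 and 103 TPM in layer 2 (1.32 ± 0.15, adjusted p = 4.44e-05). In layer 3 it stood at 86.9, 79.1 and 71.6 TPM at P3 and 100.4, 109 and 101 TPM at P7 (0.39 ± 0.15, adjusted p = 0.0868), with ranges apart. Its paralog Doc2b averaged between 1.44 and 4.0 TPM and rose in layer 2 (1.06 ± 0.25). Syt4, an abundant synaptotagmin with an altered calcium site that is known from secretory vesicles of young neurons, had no call in either layer. Its TPM were 403, 234 and 369 in P3 layer 2, 344, 296 and 329 in P7 layer 2, 379.7, 545 and 469 in P3 layer 3 and 323, 538 and 484 in P7 layer 3. The ages overlapped in both layers, and the 95% intervals of its age change were -0.49 to 0.45 in layer 2 and -0.53 to 0.40 in layer 3. Syt7, the sensor for asynchronous release, ran from 8.85 to 10.8 TPM in P3 layer 2 and 12.5 to 15.5 in P7 layer 2. In layer 3 it ran from 11.6 to 13.4 TPM at P3 and 14.3 to 15.6 at P7. Its ages were thus apart in both layers, though it had no call. Syt6 and Syt12 averaged at most 3.06 and 1.13 TPM in a group, also with no call. Syt6 ran from 2.14 to 4.41 TPM in P3 layer 2 and 0.708 to 2.07 in P7 layer 2, apart and lower at P7. Its highest mean, in P7 layer 3, came from 6.88 TPM in replicate 1, with 1.01 and 1.28 TPM in replicates 2 and 3.

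Of the 13 vesicle proteins, 9 rose in layer 2 and 9 in layer 3, and Sv2b had the largest log2 fold change of the 49 tested genes in each layer. Sv2b, a vesicle glycoprotein related to Sv2a, the target of the drug levetiracetam, stood at 8.99, 4.97 and 6.94 TPM in P3 layer 2 and 60.2, 51.9 and 60.2 TPM in P7 layer 2 (2.90 ± 0.29, adjusted p = 1.49e-05). In layer 3 it stood at 5.32, 16.0 and 8.21 TPM at P3 and 84.6, 80.0 and 94.2 TPM at P7 (3.13 ± 0.29, adjusted p = 1.89e-05). The mean TPM at P7 was 8.24 times that at P3 in layer 2 and 8.76 times in layer 3. Syn2, a synapsin that tethers vesicles in reserve, went from 18.7, 20.4 and 14.9 to 101, 73.0 and 98.1 TPM in layer 2 (2.27 ± 0.17, adjusted p = 1.86e-06) and from 18.0, 22.8 and 15.9 to 149, 131 and 132 TPM in layer 3 (2.81 ± 0.17, adjusted p = 8.11e-07). Synaptophysin, Syp, an abundant membrane protein of the vesicle, went from 182, 140.4 and 177 to 711, 547 and 705 TPM in layer 2 (1.97 ± 0.13, adjusted p = 5.86e-07) and from 267, 295 and 265 to 917, 894 and 1060.4 TPM in layer 3 (1.79 ± 0.13, adjusted p = 2.86e-06). For all 3 genes the ages were far apart in both layers.

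The relative Synpr, synaptoporin, varied more. It stood at 17.1, 39.7 and 19.8 TPM in P3 layer 2 and 87.7, 48.2 and 59.7 TPM in P7 layer 2 (1.37 ± 0.37, adjusted p = 0.0167), and at 6.60, 20.7 and 13.4 and 128, 77.4 and 107 TPM in layer 3 (2.95 ± 0.37, adjusted p = 0.000171). Its call in layer 2 was lost when replicate 1 or 3 of P3 layer 2, or replicate 1 of P7 layer 2, was left out, with adjusted p between 0.0613 and 0.0796. Syn1, whose window is printed above, rose by 1.59 ± 0.18 in layer 2 and 1.26 ± 0.18 in layer 3, the main isoform Sv2a by 1.24 ± 0.15 and 0.90 ± 0.15, and the synaptogyrin Syngr3 by 1.19 ± 0.11 and 0.87 ± 0.11. Rab3a, the main vesicle GTPase, rose less, by 0.71 ± 0.11 in layer 2 (adjusted p = 0.000532) and 0.44 ± 0.11 in layer 3 (adjusted p = 0.0144). The layer 3 call of Rab3a was lost with median-ratio scaling (0.24, adjusted p = 0.330), with pan-neuronal scaling (0.26, adjusted p = 0.172) and without P7 layer 3 replicate 3 (0.41, adjusted p = 0.0549). Rab3b rose in layer 2 (0.98 ± 0.14) and was 0.34 ± 0.14 in layer 3 (adjusted p = 0.0946), with ranges apart there. Syngr1 had its call in the other layer, with 0.35 ± 0.15 in layer 2 (adjusted p = 0.0963) and higher at P7 by 1.12 ± 0.15 in layer 3 (adjusted p = 0.000210). Its layer 2 ranges were narrowly apart, with a highest P3 value of 119.1 TPM and a lowest P7 value of 119.3 TPM. Rab3c, Syn3 and Sv2c had no call and averaged at most 13.0, 10.9 and 1.75 TPM in a group. Syn3 ran from 4.88 to 6.37 TPM in P3 layer 2 and 8.90 to 11.8 in P7 layer 2. In layer 3 it ran from 4.80 to 9.66 TPM at P3 and 10.8 to 11.0 at P7, with ages apart in both layers. In layer 2, Sv2c was also apart and higher at P7, and Rab3c was apart and lower.

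Of the 12 active zone and priming genes, 7 rose in layer 2 and 4 in layer 3, and most were below 50 TPM. Rims2, a RIM scaffold that links vesicles to calcium channels, averaged 16.1 ± 3.82 TPM in P3 layer 2 and 39.0 ± 0.765 TPM in P7 layer 2 (1.25 ± 0.18, adjusted p = 0.000238). In layer 3 it averaged 17.9 ± 2.12 and 47.5 ± 6.29 TPM (1.36 ± 0.18, adjusted p = 0.000207). The ELKS scaffolds Erc1 and Erc2 also rose in both layers, Erc1 by 0.75 ± 0.17 and 0.86 ± 0.17 and Erc2 by 1.17 ± 0.20 and 0.88 ± 0.20. Rims1 (0.92 ± 0.20), the main Munc13 priming factor Unc13a (0.88 ± 0.19) and the liprins Ppfia2 (0.53 ± 0.18) and Ppfia3 (1.03 ± 0.16) rose in layer 2. In layer 3 these 4 had estimates between 0.29 and 0.55 and adjusted p from 0.0521 to 0.278. For each of them every P7 layer 3 library still lay above every P3 layer 3 library. Ppfia3 was called higher there in some alternatives, with the smallest adjusted p at the 5 TPM filter (0.0381). Unc13b rose in layer 3 (1.08 ± 0.34, adjusted p = 0.0362), a call lost in 10 of 21 alternatives, and Ppfia2 lost its call in layer 2 in 11 of 21. The scaffolds Bsn and Pclo, with Rims3 and Unc13c, had no call and averaged at most 3.27, 9.11, 13.4 and 1.14 TPM in a group. In layer 2 the ages were apart for Bsn, at 1.27 to 2.16 TPM at P3 and 3.11 to 3.46 at P7. They were also apart there for Unc13c, at 0.243 to 0.583 and 1.01 to 1.22 TPM.

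Set side by side, 23 of the 49 genes rose in both layers, 9 were called higher at P7 in layer 2 alone, 3 in layer 3 alone, 13 in neither, and Cplx2 rose in layer 2 and fell in layer 3. A call in 1 layer alone is not a difference between the layers, which was tested separately. The estimates were above 0 in both layers for 43 genes, and across the 49 genes the 2 age changes, which come from different libraries, had a Pearson r of 0.786 and a Spearman rho of 0.781. These are descriptions across genes, which are not independent replicates. Markers of other cells moved with age as well. In layer 2, 8 of 11 tested progenitor and cell cycle markers fell, as did 2 of 12 interneuron and 1 of 10 microglia markers, 1 of 12 astrocyte markers rose, and of 10 oligodendrocyte lineage markers 1 rose and 1 fell. In layer 3, 3 of the 12 astrocyte markers and 1 of 6 subplate and layer 6b markers rose, and 1 progenitor and 1 interneuron marker fell. No oligodendrocyte lineage marker was called there, though all 10 had estimates above 0. The median log2 fold change in layer 3 was 0.79 for the astrocyte list and 0.84 for the oligodendrocyte list, against 0.74 for the release genes, and in layer 2 it was -0.18 and -0.55 against 0.92. For the progenitor and cell cycle, microglia and interneuron lists it was -1.67, -0.77 and -0.29 in layer 2. In layer 3 it was -0.45, 0.02 and 0.30. All 11 progenitor and cell cycle markers and 8 of 10 microglia markers had estimates below 0 in layer 2. In P7 layer 3 the summed TPM ran from 962 to 2652 for the astrocyte list and from 105 to 1286 for the oligodendrocyte list, and in P7 layer 2 from 1169 to 3383 and from 256 to 754, with the P3 values given under the layer comparison. For the progenitor and cell cycle list it ran from 973 to 2710 in P7 layer 2 and 365 to 1385 in P7 layer 3. For the microglia list it ran from 660 to 1709 and 559 to 1762. Of the 14 pan-neuronal genes, 9 rose and 1 fell in layer 2, and 1 rose and 2 fell in layer 3. The part of these markers in the age changes of the release genes was not tested. Scaled to the pan-neuronal genes, 23 release genes were called higher and 0 lower in layer 2, and 23 higher and 1 lower in layer 3. Of all 17606 tested genes, that scaling called 1134 higher and 3188 lower in layer 2, and 1137 higher and 1192 lower in layer 3. The layer 2 calls lost with that scaling were those of Cplx1, Cplx2, Doc2b, Erc1, Ppfia2, Rims1, Synpr, Syt5, Syt11 and Unc13a. Without the 3 libraries that stood apart, 33 were higher in layer 2 and 27 in layer 3, and 0 were lower in either. Of the 17015 genes tested in that fit, 2272 were higher and 1363 lower in layer 2, and 1367 and 678 in layer 3.

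**Figure D3:**
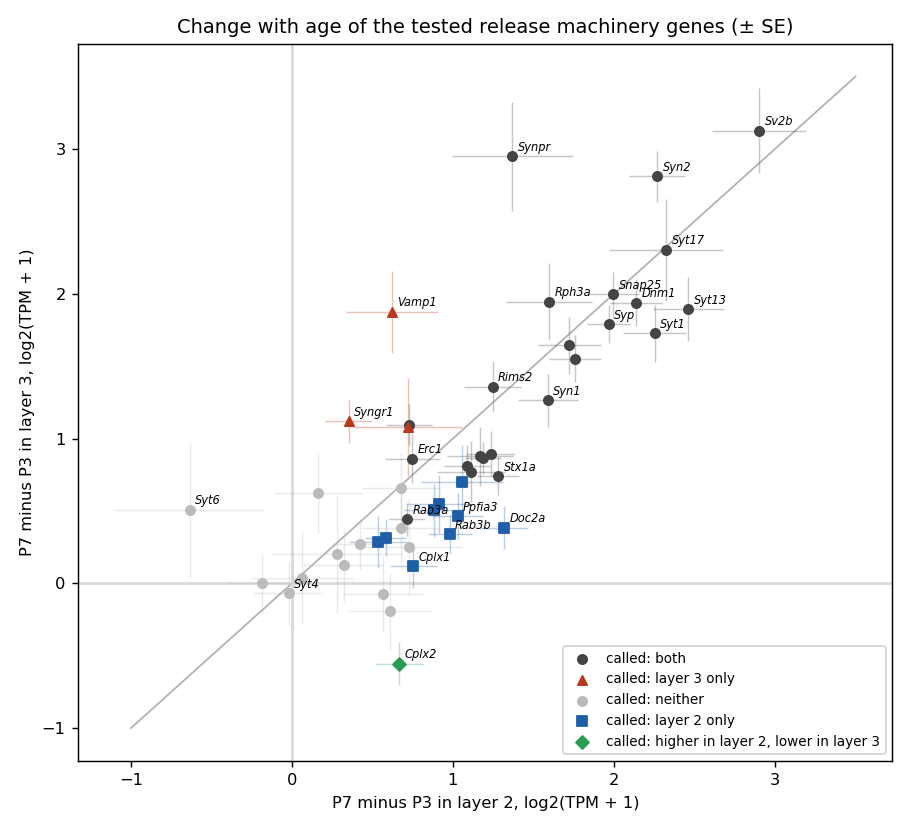
Log2 fold change of P7 against P3 in layer 2 (x axis) and layer 3 (y axis) of the 49 tested release genes, with standard errors; marker shape and colour give the layers in which a gene was called, the diagonal marks equal change, and labels are left off where points crowd. Sv2b and Syn2 lie at the upper right, and Cplx2 is the called gene below the horizontal 0 line.

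The second question was which release genes differed between the layers at the same age. At P3, 13 of the 49 were lower in layer 2 and 0 higher, where 4.18% of all tested genes were lower and 4.87% higher (9.05% in either direction). The median log2 fold change of layer 2 against layer 3 was -0.43 over the 49 genes and 0.06 over all tested genes. The ranges lay apart with layer 2 lower for 23 of the 49 and with layer 2 higher for 1, Syt6, where 11.0% and 16.0% of all tested genes did so. The P3 libraries also enter the age comparisons above, so a low value in P3 layer 2 bears on both.

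The lower genes came from every role. Stx1a had the smallest adjusted p, with 137, 97.8 and 124 TPM in P3 layer 2 and 239.7, 229.7 and 253 TPM in P3 layer 3 (-1.02 ± 0.13, adjusted p = 0.000772). Cplx2 had 47.6, 35.9 and 47.1 against 95.6, 78.1 and 103 TPM (-1.07 ± 0.15, adjusted p = 0.000984), and Cplx1 had 140.2, 108 and 146 against 215, 222 and 217 TPM (-0.74 ± 0.15, adjusted p = 0.00785). For these 3 genes every layer 2 library lay below every layer 3 library. Among the sensors Doc2a (-0.91 ± 0.15, adjusted p = 0.0030), Syt1 (-0.96 ± 0.20, adjusted p = 0.00927), Syt3 (-0.88 ± 0.21, adjusted p = 0.0201) and Syt13 (-0.76 ± 0.22, adjusted p = 0.0465) were lower in layer 2. Among vesicle proteins these were Syp (-0.73 ± 0.13, adjusted p = 0.00467), Rab3a (-0.50 ± 0.11, adjusted p = 0.0155), Rab3b (-0.49 ± 0.14, adjusted p = 0.0382) and Syngr3 (-0.45 ± 0.11, adjusted p = 0.0240). In the active zone they were Ppfia3, at 11.3, 9.78 and 13.6 against 20.6, 23.1 and 22.4 TPM (-0.89 ± 0.16, adjusted p = 0.00431), and Rims1 (-0.68 ± 0.20, adjusted p = 0.0499).

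Several of the most abundant release genes did not pass at P3. Snap25 was -0.53 ± 0.16 (adjusted p = 0.0546) and Vamp2 -0.45 ± 0.14 (adjusted p = 0.0639). The estimates of Synpr (0.90 ± 0.37), Syt6 (0.75 ± 0.46) and Syt17 (0.61 ± 0.35) were above 0, with adjusted p of 0.158, 0.359 and 0.328. For Syt6 and Syt17, and for Synpr, the highest P3 layer 2 value was in replicate 2.

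Markers of other cells moved with this comparison. All 11 tested progenitor and cell cycle markers, 6 of 12 astrocyte, 2 of 10 oligodendrocyte lineage, 3 of 12 interneuron and 0 of 10 microglia markers were higher in P3 layer 2, and 3 of 14 pan-neuronal genes were lower. Summed TPM ran from 4167 to 6959.9 in P3 layer 2 against 739 to 1854 in P3 layer 3 for the progenitor and cell cycle list, from 2436 to 5235 against 2092 to 3041 for the astrocyte list, and from 459.7 to 509.8 against 101 to 303 for the oligodendrocyte list. They ran from 209 to 281 against 202 to 316 for the interneuron list, from 1362 to 2798 against 823 to 1514 for the microglia list, and from 8046 to 10441 against 12220.1 to 14833 for the pan-neuronal list. Sums follow the most abundant markers. Median log2 fold changes were 1.84 (progenitor and cell cycle), 1.74 (astrocyte), 1.29 (oligodendrocyte), 0.73 (interneuron), 0.65 (microglia) and -0.35 (pan-neuronal). Estimates were above 0 for all 12 astrocyte, 10 oligodendrocyte and 10 microglia markers and for 8 of 12 interneuron markers. Eomes of the progenitor list was listed at 0 in P3 layer 3 replicates 1 and 3 and Pvalb of the interneuron list in all 3 P3 layer 3 libraries. The part of these cells in the lower release genes was not tested. Scaled to the pan-neuronal genes, which moved the median of all genes from 0.06 to 0.38, 5 release genes were lower and 1, Syt11, was higher in layer 2, the 5 being Cplx2, Stx1a, Syt1, Doc2a and Syp. Of all 17606 tested genes, 264 were lower and 1819 higher with that scaling. The calls of Syt13, Rims1 and Rab3b were lost in 11, 9 and 8 of the 12 fits that left out a library. Leaving out P3 layer 3 replicate 2 gave 11 lower and 2 higher, the 2 being Syt11 (0.47, adjusted p = 0.0289) and Synpr (1.25, adjusted p = 0.0497). Of the 17504 genes tested in that fit, 692 were lower and 1282 higher. Leaving out P3 layer 2 replicate 2 left 7 calls, and leaving out the 3 libraries that stood apart left 9, of which 7 were among the 13. Those fits called 657 of 17382 and 591 of 17015 tested genes.

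At P7 none of the 49 release genes was called between the layers, where 0.500% of all tested genes were called. Of the 49, 9 had an unadjusted p under 0.05 in limma's test, all lower in layer 2. The share of all tested genes with such a p was not computed, so no excess can be read from this count. The median was -0.20 over the 49 genes and -0.04 over all tested genes, and the ranges lay apart with layer 2 lower for 20 genes and with layer 2 higher for 0, where 11.9% and 8.14% of all tested genes did so. The smallest adjusted p was that of Syp, with 711, 547 and 705 TPM in the layer 2 libraries against 917, 894 and 1060.4 in those of layer 3 (-0.55 ± 0.13, adjusted p = 0.0967). Snap25 (-0.52 ± 0.16, adjusted p = 0.211) and Stx1a (-0.48 ± 0.13, adjusted p = 0.167) also had ranges apart. The 95% intervals of the 49 genes reached from -1.57 for Vamp1 to 1.38 for Syt17. A fit of the compared groups alone called Syngr1 and a fit without the 3 libraries that stood apart called Syt4, both lower in layer 2. Of 16317 genes tested, the first of these fits called 96 lower and 29 higher. The second called 82 lower and 35 higher of 17015.

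The third question was whether the age change differed between the layers, tested directly by subtracting the layer 3 change from the layer 2 change. Cplx2 was the 1 release gene called, where 0.182% of all tested genes were, 0.119% with the layer 2 change above the layer 3 change and 0.0625% with it below. Cplx2 TPM were 47.6, 35.9 and 47.1 in P3 layer 2 and 77.4, 63.5 and 67.2 in P7 layer 2, a rise of 0.67 ± 0.15 (adjusted p = 0.00507). They were 95.6, 78.1 and 103 in P3 layer 3 and 61.2, 60.8 and 64.7 in P7 layer 3, a log2 fold change of -0.55 ± 0.15 (adjusted p = 0.0173). The ages did not overlap in either layer, and at P7 layer 2 against layer 3 was 0.15 ± 0.15 (adjusted p = 0.798). The difference of the age changes was 1.22 ± 0.21 (adjusted p = 0.0397). This call stood in 6 of 20 alternatives, with adjusted p between 0.0161 and 0.165, and, of the 12 fits that left out a library, it held in the fit that dropped P3 layer 2 replicate 1 and in that which dropped P3 layer 3 replicate 2, and in no other. The rise in layer 2 stood in 20 of 21 alternatives, and the fall in layer 3 in 16 of 21, with adjusted p up to 0.0766; it was lost without P3 layer 3 replicate 1 or 3 or P7 layer 3 replicate 1 or 2. Without the 3 libraries that stood apart the estimate was 1.05 (adjusted p = 0.165). The next release gene was Doc2a (0.93 ± 0.21, adjusted p = 0.10), and Synpr had the largest estimate in the other direction (-1.58 ± 0.53, adjusted p = 0.256). Of the 49 genes, 11 had an unadjusted p under 0.05 in limma's test, Cplx2 included. The share of all tested genes with such a p was not computed, so no excess can be read from this count.

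**Figure D4:**
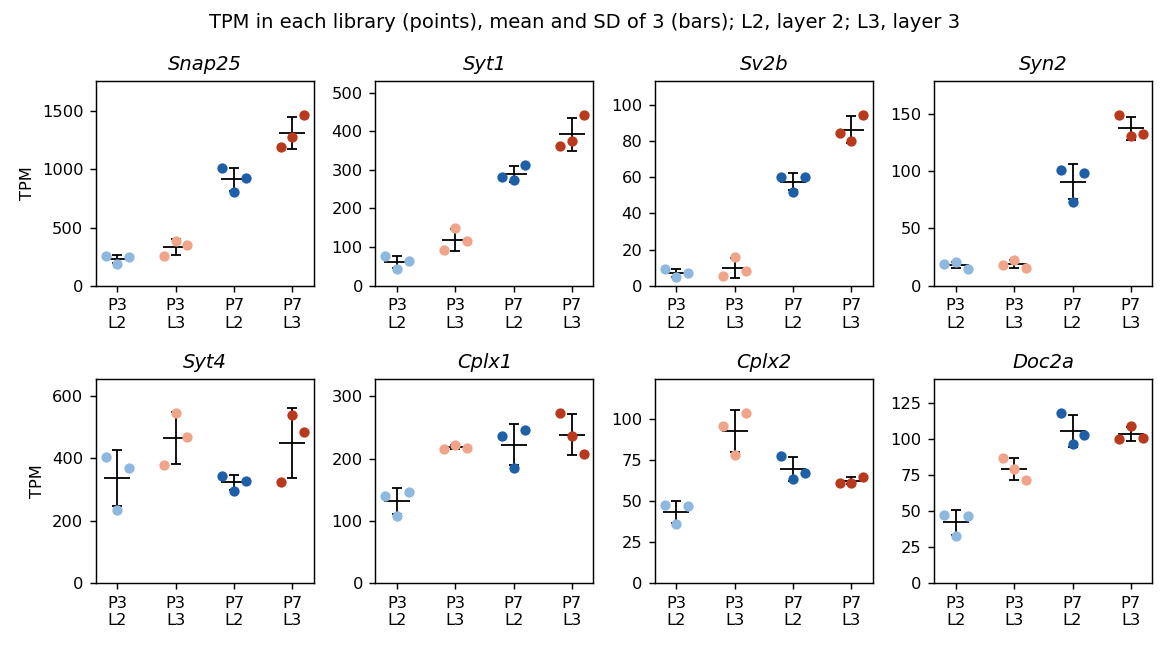
TPM (y axis, a scale of its own in each panel) of 8 release genes in each library of the 4 groups (L2, layer 2; L3, layer 3); points are libraries, the horizontal tick is the mean and the bars are SDs of 3. Snap25, Syt1, Sv2b and Syn2 are higher at P7 in both layers, Syt4 overlaps between the ages, and Cplx2 rises in layer 2 and falls in layer 3.

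The balance of paralogs within families is given as shares of a family's summed TPM, with no test. Sv2b made up 9.40% ± 1.39 of the Sv2 family in P3 layer 2 and 26.9% ± 0.705 in P7 layer 2, and 8.91% ± 2.81 and 33.1% ± 1.07 in layer 3. Syn2 made up 15.3% ± 5.40 and 22.9% ± 1.48 of the synapsins in layer 2 and 11.1% ± 1.31 and 27.7% ± 2.02 in layer 3. For both genes in layer 3, and for Sv2b in layer 2, the P7 libraries lay above the P3 libraries. Rims2 made up 43.1% ± 3.58 and 53.5% ± 1.97 of the RIM genes in layer 2 and 38.7% ± 1.10 and 55.6% ± 1.59 in layer 3. Cplx2 made up 24.6% ± 0.441 of the complexins in P3 layer 2, 29.5% ± 3.23 in P3 layer 3, 23.7% ± 2.06 in P7 layer 2 and 20.7% ± 2.76 in P7 layer 3. How reads shared between paralogs were counted is not stated in the labels. In GENCODE vM21 (GRCm38) exons of 20 of the 50 genes overlap another gene, for 8 of them a protein-coding one (Syt6, Doc2a, Syn1, Syn2, Syn3, Rab3a, Unc13a and Ppfia2), and the strand setting of the counting is not given, so levels of these genes are uncertain to that degree.

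**Figure D5:**
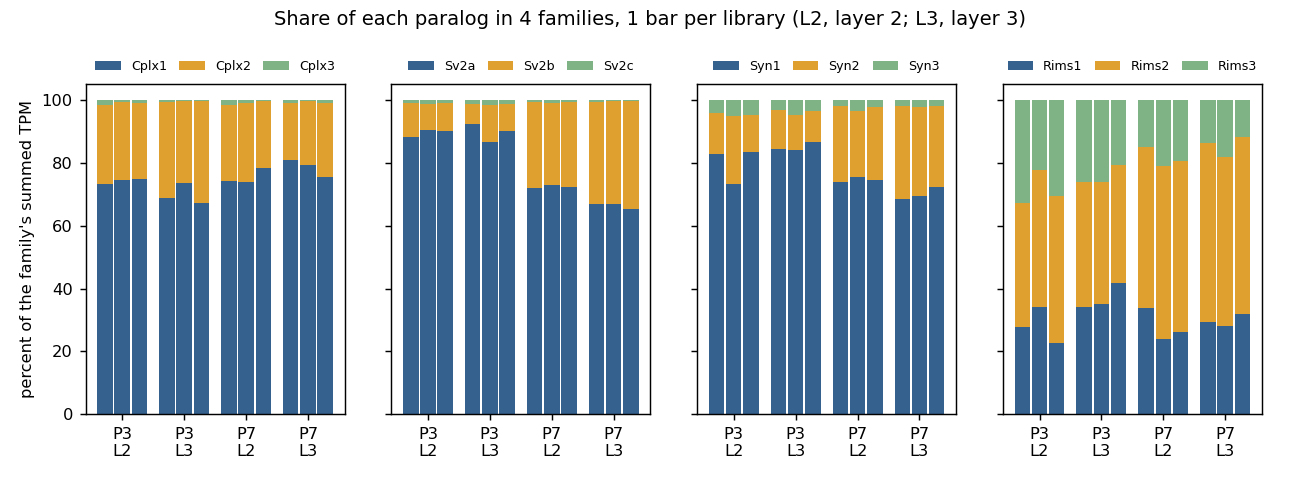
Percent of a family's summed TPM (y axis) held by each member of the complexin, Sv2, synapsin and RIM families, 1 bar per library in the 4 groups. The Sv2b part grows from P3 to P7 in both layers, and the Cplx2 part is widest in P3 layer 3.

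A further 61 genes of the release pathway were in the table and 55 were tested, among them SNARE relatives, adaptors and recycling genes. With age, 36 of the 55 rose and 0 fell in layer 2, and 31 rose and 0 fell in layer 3, with medians of 0.88 and 0.60, where 15.0% and 14.4% of all tested genes rose. Scaled to the pan-neuronal genes, 21 rose and 2 fell in layer 2, and 18 rose and 0 fell in layer 3. Of all 17606 tested genes, 1134 rose and 3188 fell in layer 2 with that scaling, and 1137 rose and 1192 fell in layer 3. Median-ratio scaling gave 23 higher and 1 lower in layer 3, where 1742 of all tested genes were higher and 1742 lower. Without the 3 libraries that stood apart 30 rose in layer 2 and 20 in layer 3, where 2272 and 1367 of 17015 tested genes rose. The largest changes in layer 2 were those of Sytl2, a Rab27 effector (1.47 to 22.4 TPM, 3.30 ± 0.27), the scaffold adaptor Lin7b (39.6 to 205 TPM, 2.35 ± 0.23) and Prrt2, a SNARE-binding protein (47.6 to 221 TPM, 2.18 ± 0.20). In layer 3 they were those of Sytl2 (1.97 ± 0.27), the tomosyn relative Stxbp5l (1.88 ± 0.35) and Syt10 (1.82 ± 0.36). At P3, 10 of the 55 were lower in layer 2 and 0 higher, where 4.18% of all tested genes were lower and 4.87% higher, led by Cadps2, a factor for dense-core vesicle release (9.45 against 34.9 TPM, -1.79 ± 0.20), Sytl2 (-1.71 ± 0.27) and Lin7a (-1.49 ± 0.28). Scaled to the pan-neuronal genes, 6 were lower and 3 higher, where 264 of the 17606 tested genes were lower and 1819 higher. The count was 6 lower with the compared groups alone, 6 without P3 layer 2 replicate 2 and 7 without the 3 libraries that stood apart (0 were higher in each), and 9 lower and 1 higher without P3 layer 3 replicate 2. Over all tested genes the same fits called 366, 379, 408 and 692 lower, and 680, 278, 183 and 1282 higher. For the difference in age change between the layers, limma called 0 of the 55, where 0.182% of all tested genes were called. Of the 55, 11 had an unadjusted p under 0.05 in limma's test. The share of all tested genes with such a p was not computed. The smallest adjusted p was that of Prrt2 (1.27 ± 0.28, adjusted p = 0.0906), and 3 of 20 alternatives called 1 gene.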

How the data were processed

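Per the labels' protocols, RNA was extracted with the RNeasy mini kit, and the SMART-Seq mRNA LP kit was used for libraries. HISAT2, StringTie, featureCounts and GRCm39 are named in the submitters' processing notes, with no version. The values are TPM as the authors deposited them, with no count or depth behind them.

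Groups came from the sample labels. Genes reaching 1 TPM in 3 or more libraries were transformed to log2(TPM + 1) and fitted in limma 3.58.1 (limma-trend, R 4.3.3) with 1 mean per group over 12 libraries and 8 residual degrees of freedom. Comparisons were two-sided with Benjamini-Hochberg adjustment over all 17606 tested genes. With 3 libraries on each side, the smallest p of an exact permutation test is 0.1. The separate pools are biological replicates per the labels.

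The members and lists were chosen with earlier results of these data known. Every member is named. Of other pathway genes, up to 3 called in each direction of a comparison are named, by absolute log2 fold change where the higher group's mean reaches 5 TPM. The pipeline was tested on simulated data, where the test of a difference in age change recovered fewer of the changed genes than the other comparisons did. Alternatives were other pseudocounts (0.1 and 5), filters (none, or 5 TPM) and scalings (median-ratio, pan-neuronal), the compared groups alone, a replicate block, the fit without 3 libraries that stood apart, and each library left out. The pathway list's result between the layers at P7 is not reported here.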

Additional observations from a re-analysis of the deposited data

Results flagged for a closer look

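The age change of Cplx2 passed the test of a difference between the layers: layer 2 minus layer 3 was 1.22 ± 0.21 on the log2(TPM + 1) scale (adjusted p = 0.0397, limma over 17606 genes). It rose in layer 2 and fell in layer 3, and in all 3 libraries of each layer the P7 value lay on the same side of the P3 range. The call was lost in 14 of 20 alternatives, 10 of them fits that left out 1 library, with adjusted p up to 0.165.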

How the results depend on the processing

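The counts of release genes called in the age comparisons stayed within 1.5 times under every alternative run, at 31 to 34 in layer 2 and 24 to 29 in layer 3 with a library left out. The layer comparison at P3 moved from 13 called to 20 with median-ratio scaling, 6 with pan-neuronal scaling and 7 with the compared groups alone, and to 7 to 14 with a library left out. At P7 it moved from 0 to 1 with the compared groups alone and 1 without the 3 libraries that stood apart, and was 0 in each fit that left out a library. The difference in age change moved from 1 to 0 with a pseudocount of 0.1, no filter, pan-neuronal scaling and without the 3 libraries, and was 0 to 1 with a library left out. Over all genes, the calls at P3 moved from 1593 to 1046 with the compared groups alone and 591 without the 3 libraries (657 to 1974 with a library left out). These calls numbered 1858 with median-ratio scaling and 2083 with pan-neuronal scaling. Median-ratio scaling called 1001 genes lower and 857 higher in layer 2, and the main fit 736 lower and 857 higher. At P7 the calls over all genes moved from 88 to 47 and 147 with pseudocounts of 0.1 and 5 and to 49 with pan-neuronal scaling (14 to 125 with a library left out). The age change in layer 3 moved from 3670.0 to 2329 with pan-neuronal scaling, 2239 with the compared groups alone and 2045 without the 3 libraries (2275 to 5225 with a library left out), and that in layer 2 ran from 2793 to 4951 around 4280.0 with a library left out. The difference in age change moved from 32 to 14 with a pseudocount of 0.1, 16 with no filter, 15 with pan-neuronal scaling and 12 without the 3 libraries (8 to 102 with a library left out). The causes were not tested.

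Pan-neuronal scaling shifted the median of all genes from 0.06 to 0.38 at P3, from 0.03 to -0.32 for age in layer 2, from 0.17 to -0.01 in layer 3 and from -0.04 to 0.11 at P7. The share of calls that were higher went from 53.8% to 87.3%, from 61.6% to 26.2%, from 69.2% to 48.8% and from 23.9% to 34.7%, and median-ratio scaling gave 50% for age in layer 3. Replicate numbers were not used to pair samples in the main fit. Of 18 correlations between same-numbered libraries' deviations 5 were over 0.1 (range -0.19 to 0.21). No reference value was computed for them, so they cannot decide whether equal numbers mark paired samples. The replicate block gave 12, 0, 32, 27 and 1 release genes called at P3, at P7, for age in layer 2, for age in layer 3 and for their difference. Of all 17606 tested genes it called 1524, 68, 4084, 3336 and 31 in the same order. Without counts, depth sets limits that cannot be given.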
